A study of Sus scrofa with 48 samples.

Results

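Oxidative phosphorylation is carried out in the inner mitochondrial membrane by complexes I to IV of the respiratory chain, which pass electrons to oxygen and pump protons, and by complex V, the ATP synthase, which uses the proton gradient to make ATP. Most subunits are encoded in the nucleus, and a few of complexes I, III, IV and V in mitochondrial DNA. In blood, leukocytes, platelets and young red cells hold mitochondria, whereas mature red cells have lost them, so that transcripts of subunits in whole blood come from a mixture of cells. The subunits described here are the nuclear ones whose gene names in the scanner files begin as NDUFA, NDUFB, NDUFC, NDUFS, NDUFV, SDHA to SDHD, UQCR, COX4 to COX8 or ATP5. They took up 198 of the 37113 spots retained in the normalized table, and belonged to 70 of 26924 gene names. Complex I had 60 spots of 33 genes, complex II 24 spots of 3 genes, complex III 18 spots of 7 genes, complex IV 39 spots of 12 genes and complex V 57 spots of 15 genes. Another 12 spots matched these names but were not retained, and 6 genes (ATP5SL, COX4I1, COX4I2, COX4NB, NDUFB1 and UQCRFS1) had no retained spot.

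Blood RNA was measured in 48 French Large White castrated male pigs aged 132 days, with 1 single-colour array per pig. They came from a line selected for low residual feed intake (RFI), the difference between observed and predicted feed intake, and a line selected for high RFI, and were fed either a high fat, high fiber (HF) diet or a low fat, low fiber (LF) diet. There were 12 pigs in each of the groups low RFI HF, low RFI LF, high RFI HF and high RFI LF, and the pigs of all groups were fed ad libitum. Each line is 1 selected population, so that a line difference may come from selection or from chance drift between the lines, which cannot be told apart in this design. The arrays were on 6 slides with 2 pigs of each group per slide, and the slides were scanned on 3 days. The median spot intensity was 5.91 to 16 times the local background. Markers of red cells, platelets, neutrophils, monocytes, B cells, T cells and NK cells were all measured, and HBB, the beta globin gene, had a median of 9.24 in low RFI and 9.18 in high RFI pigs. ALB, a liver gene, and CKM, a muscle gene, also had levels above the median of the negative control spots (-3.60) in every pig, so that their absence was not shown. Levels are log2 median spot intensities minus the median of the array, and a level at 1 probe says nothing about the level at another. From whole blood RNA alone, fewer cells of a type and less RNA per cell cannot be told apart. The paper counted blood cells and reported no significant line difference in neutrophils, lymphocytes or monocytes, and more red cells in low RFI pigs. Those counts were not set against the levels here.

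Because the line differences below rest on single probes in several genes, the probes that carry them are shown first. All are the sequences given in the scanner files, written 5′ to 3′. The probe of UQCRB, the ubiquinone-binding protein of complex III, on which the line difference was found shared at most 6 bases in a row with any of the other 7 UQCRB probes, and 6 of those 7 held a run of 20 bases in common. The NDUFB9 probes A_72_P473353 and A_72_P680773, both different between lines, overlapped in a run of 50 bases and were therefore not independent. Of their shared run, 30 bases are shown, with the polyadenylation hexamer AATAAA in capitals. This hexamer was in 46 of the 198 subunit probes (23.2%) and in 12.0% of all retained probes (given strand only). The NDUFB9 probe A_72_P574759, at which no line difference was called, is shown for comparison. A reading frame without a stop codon was found in 147 of the 198 subunit probes, among them all 4 of NDUFB9 and the probes of UQCRB, ATP5O and NDUFV3 shown here. The share over all retained probes was not computed, and such a frame does not place a probe in coding sequence.
UQCRB, probe O2995: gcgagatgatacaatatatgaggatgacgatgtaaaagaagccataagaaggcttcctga
UQCRB, run common to 6 other probes: cgaaatgtacaatgtagacc
NDUFB9, shared by the 2 called probes: aattataggacatacgcttgccctAATAAA
NDUFB9, probe A_72_P574759: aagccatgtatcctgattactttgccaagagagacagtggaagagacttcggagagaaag
NDUFV3, probe O12406: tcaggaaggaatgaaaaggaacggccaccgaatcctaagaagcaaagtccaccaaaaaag
ATP5O, probe O10231: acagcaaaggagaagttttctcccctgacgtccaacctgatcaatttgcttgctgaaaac
UQCR10, first 30 bases of probe A_72_P268504: aatggcttcacctgacagactctttaactt

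The first comparison was between the lines (24 low RFI against 24 high RFI pigs, both diets). NDUFV3, UQCR10 and ATP5L were overexpressed in low RFI pigs, and UQCRB, NDUFB9 and ATP5O were underexpressed, each at 1 or 2 spots. At an adjusted P-value under 0.05 by limma, 7 of the 198 subunit spots were called, which is 3.54% of them, compared with 2.77% of all retained spots. Of the 7, 3 were higher and 4 lower in low RFI pigs, while 1.32% of all spots were called higher and 1.44% lower. An unadjusted P-value under 0.05 was found at 18 subunit spots (9.09%), compared with 12.0% of all spots. The criterion of the methods, an unadjusted P-value under 0.01 with an FC above 1.1, was met by 10 subunit spots (5.05%) and by 5.78% of all spots. The other 3 spots were both probes of NDUFC1 and 1 of COX6B. The share of subunit spots past a threshold was thus close to that of the whole array.

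The direction of the remaining differences was uneven. The mean was higher in low RFI pigs at 161 of 198 subunit spots (81.3%), compared with 58.6% of all spots. The median log2 FC over the subunit spots was 0.05, and over all spots it was 0.02. By complex, 52 of 60 spots of complex I were higher in low RFI pigs, 20 of 24 of complex II, 11 of 18 of complex III, 31 of 39 of complex IV and 47 of 57 of complex V. The median log2 FC was 0.06 in complex I, 0.04 in complex II, 0.0078 in complex III, 0.05 in complex IV and 0.04 in complex V. These medians were smaller than the SD between pigs of the mean subunit level, given below. The 198 spots are not independent, since pigs high in one subunit tended to be high in most others.

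**Figure D1:**
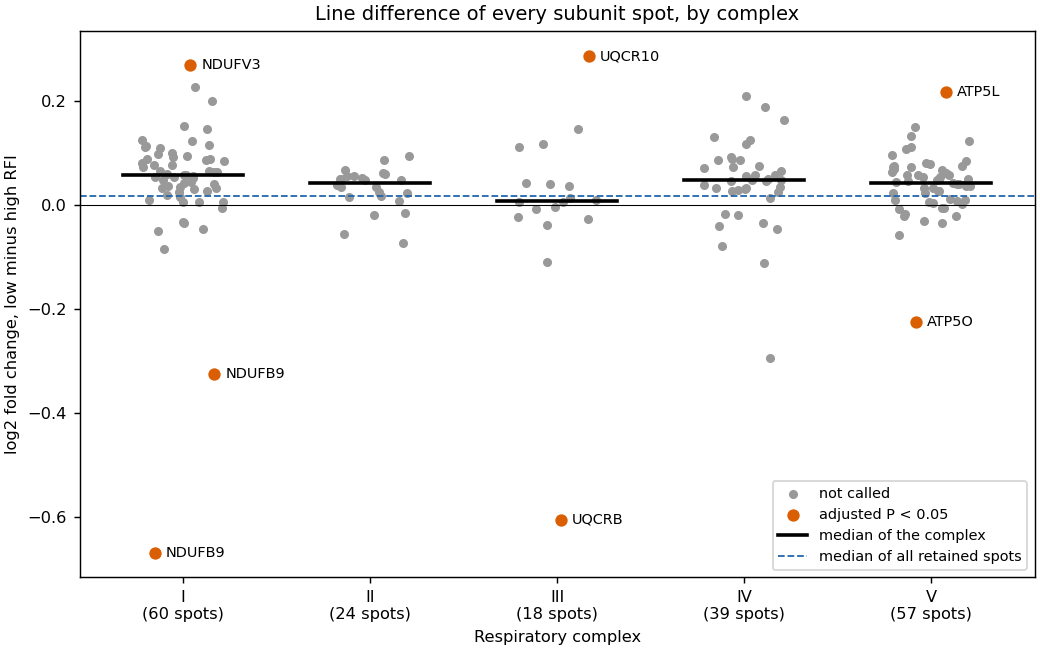
The log2 FC between lines (vertical axis, low minus high RFI) is plotted for each of the 198 subunit spots by respiratory complex, with the 7 spots at an adjusted P-value under 0.05 in orange, the median of each complex as a black bar and the median of all retained spots as a dashed line. Most grey points lie a little above 0, and the called spots lie on both sides, from -0.67 at NDUFB9 to 0.29 at UQCR10.

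The excess of higher means was not found on every slide. Within slides, each with 4 pigs per line, 77 of 198 subunit spots were higher in low RFI pigs on slide 1, 117 on slide 2, 164 on slide 3, 161 on slide 4, 60 on slide 5 and 162 on slide 6. The median log2 difference was -0.02 on slide 1 and -0.04 on slide 5, and ranged from 0.02 to 0.13 on the other slides. Over all retained spots the median within a slide stayed between -0.01 and 0.04. The small shift of the subunits thus had opposite signs on different slides.

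Complex I takes electrons from NADH. Of its 33 genes, NDUFV3 was called higher and NDUFB9 lower in low RFI pigs. NDUFV3, an accessory subunit of the NADH-oxidizing arm, had 1 probe. Its level ranged from 0.48 to 1.07 with a median of 0.71 in low RFI pigs, and from 0.15 to 0.98 with a median of 0.42 in high RFI pigs. The ranges overlapped, but all 24 low RFI pigs were above the median of the high RFI pigs and 6 were above every high RFI pig. The low RFI mean was 0.75 ± 0.21 (SD, n = 24), compared with 0.48 ± 0.22 (SD, n = 24) for high RFI, which gives a log2 FC of 0.27 (SE 0.06, FC 1.21, adjusted P-value 0.0077 by limma). The difference was 0.28 in pigs fed HF and 0.26 in pigs fed LF, and it was positive on all 6 slides, from 0.11 to 0.47. Without slide 6 it was 0.23 and the adjusted P-value rose to 0.076, so that the call rested in part on that slide.

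NDUFB9, an accessory subunit of the membrane arm, had 4 probes that did not behave alike. At probe A_72_P473353 the level ranged from 2.43 to 4.41 with a median of 3.69 in low RFI pigs, and from 3.46 to 4.72 with a median of 4.17 in high RFI pigs. There were 23 low RFI pigs below the median of the high RFI pigs, and 8 below all of them. The spread was wider in low RFI pigs, with a mean of 3.47 ± 0.60 (SD, n = 24) compared with 4.14 ± 0.32 (SD, n = 24). The log2 FC was -0.67 (SE 0.13, FC -1.59, adjusted P-value 0.0014 by limma). At the overlapping probe A_72_P680773 it was -0.33 (SE 0.07, adjusted P-value 0.0042), again with 23 low RFI pigs below the high RFI median. Both probes were lower in low RFI pigs on all 6 slides. The probes A_72_P574759 and O10220, which share no more than 6 bases in a row with them, had log2 FC of -0.08 (SE 0.06, adjusted P-value 0.73) and 0.06 (SE 0.09, adjusted P-value 0.95). Among the residuals from the group means over 48 pigs, the called probes had a Pearson r of 0.91 with each other, of 0.50 and 0.60 with A_72_P574759 and of -0.04 and 0.07 with O10220. The mean of the 4 probes gave a log2 FC of -0.26 (adjusted P-value 0.026), while the brightest probe, O10220, gave 0.06, so that the direction of the gene depends on the probe.

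**Figure D2:**
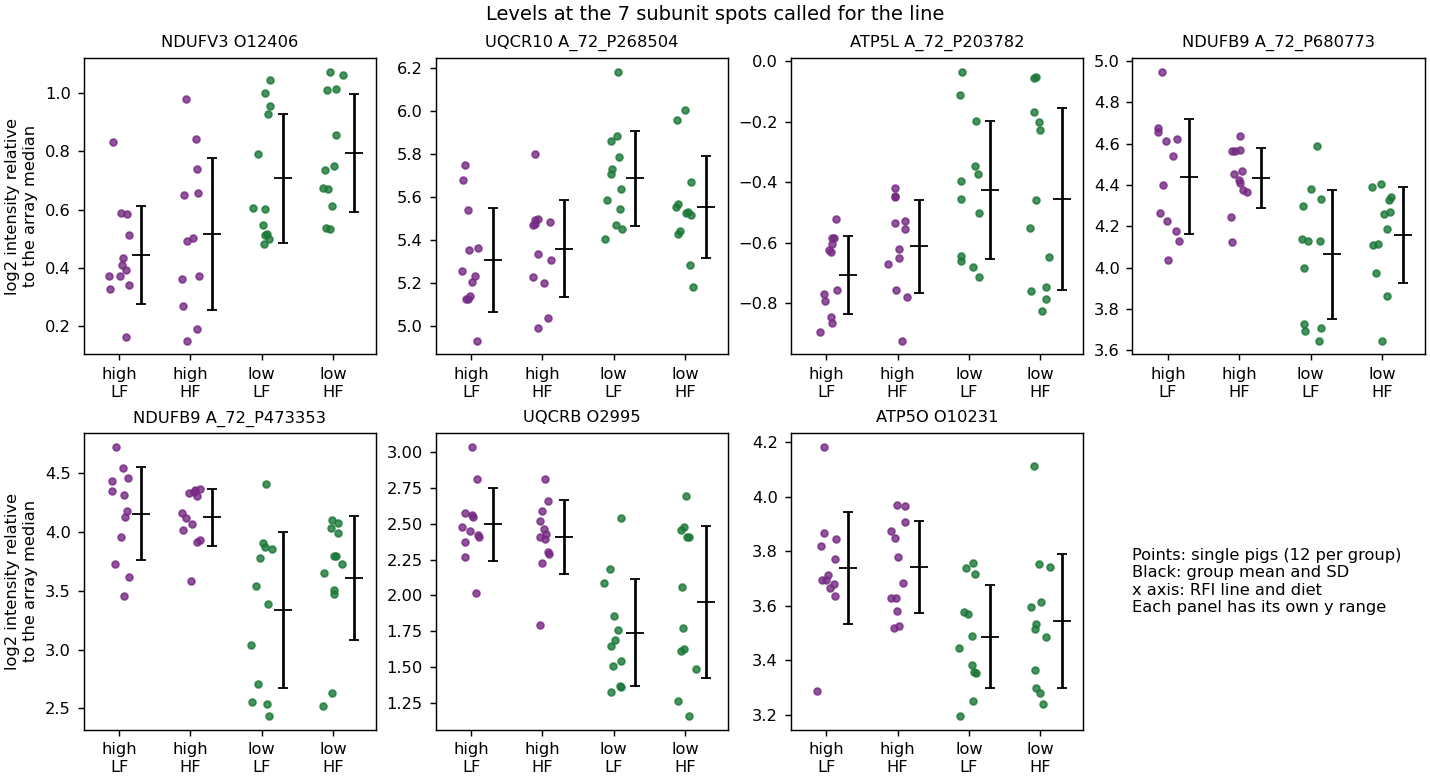
Each panel plots 1 of the 7 spots called for the line, with the log2 level relative to the array median on the vertical axis, the 12 pigs of each RFI line and diet group as points, and the group mean and SD in black. The line ranges overlap in every panel, and the low RFI pigs spread most widely at NDUFB9 A_72_P473353 and UQCRB O2995.

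NDUFC1, a small membrane-arm subunit, was the closest to the threshold among the other genes of complex I. Its gene value, the mean of 2 probes, ranged from 2.44 to 3.11 with a median of 2.81 in low RFI pigs, and from 2.20 to 3.08 with a median of 2.56 in high RFI pigs. There were 23 low RFI pigs above the high RFI median. The log2 FC was 0.21 (SE 0.07, adjusted P-value 0.062 by limma), and 0.23 and 0.20 at the single probes, which did not overlap in sequence by more than 7 bases and had a Pearson r of 0.81 over 48 pigs. It passed the threshold under 5 of 15 alternative analyses. NDUFC1 was 0.32 higher in low RFI pigs fed HF and 0.11 higher in those fed LF, and the interaction had an unadjusted P-value of 0.10. In all, 29 of 33 genes of complex I had a higher mean in low RFI pigs, and the genes other than these 3 lay between -0.03 and 0.13. NDUFA4, now regarded as a subunit of complex IV, had a log2 FC of 0.04 (SE 0.06) and its paralog NDUFA4L2 of 0.05 (SE 0.07). Counting them with complex IV left the medians of complexes I and IV at 0.06 and 0.05.

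Complex II links the citrate cycle to the chain and contains no subunit from mitochondrial DNA. None of its 24 spots was called. SDHB, the iron-sulfur subunit, had 9 probes that were all higher in low RFI pigs, by 0.04 to 0.09. Its gene value ranged from 2.41 to 2.91 with a median of 2.63 in low RFI pigs, and from 2.36 to 2.90 with a median of 2.59 in high RFI pigs, with a log2 FC of 0.06 (SE 0.04, adjusted P-value 0.72 by limma). The 6 probes of SDHA, the flavoprotein, were also all higher, and the gene had a log2 FC of 0.03 (SE 0.04). SDHD, a membrane anchor, had 5 probes higher and 4 lower and a log2 FC of 0.0024 (SE 0.06), with 12 of 24 low RFI pigs above the high RFI median. The SEs of these 3 genes were no larger than that of NDUFV3.

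Complex III passes electrons from ubiquinol to cytochrome c. UQCR10, a small subunit, and the UQCRB probe O2995 moved in opposite directions. UQCR10 had 1 probe, with levels from 5.18 to 6.18 and a median of 5.56 in low RFI pigs and from 4.93 to 5.80 with a median of 5.32 in high RFI pigs. Of the low RFI pigs, 22 were above the high RFI median and 5 above every high RFI pig. The log2 FC was 0.29 (SE 0.07, FC 1.22, adjusted P-value 0.0079 by limma), and it was 0.20 in pigs fed HF and 0.38 in pigs fed LF (unadjusted P-value of the interaction 0.18). Within slides it ranged from -0.04 on slide 1 to 0.42 on slide 2. Without slide 6 it was 0.26, with an adjusted P-value of 0.060.

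At the UQCRB probe O2995 the level ranged from 1.16 to 2.70 with a median of 1.72 in low RFI pigs, and from 1.79 to 3.04 with a median of 2.44 in high RFI pigs. There were 14 low RFI pigs below every high RFI pig. The low RFI mean was 1.84 ± 0.46 (SD, n = 24), compared with 2.45 ± 0.25 (SD, n = 24) for high RFI. The log2 FC of -0.61 (SE 0.10, FC -1.52, adjusted P-value 1.8e-04 by limma) was the lowest P-value among the subunit spots, and the probe was lower in low RFI pigs on all 6 slides, by 0.40 to 0.91 on the log2 scale. The other 7 UQCRB probes had log2 FC between -0.04 and 0.04, and the lowest adjusted P-value among them was 0.95. These 7 probes had Pearson r of 0.73 to 0.95 with each other over 48 pigs, and of 0.43 to 0.59 with O2995. The gene value of UQCRB, over all 8 probes, had a log2 FC of -0.08 (SE 0.06, adjusted P-value 0.78). UQCRC1, a core subunit, was the next gene of complex III at 0.13 (SE 0.06, adjusted P-value 0.36), UQCRH, the hinge protein, had 0.08 (SE 0.06), and UQCRC2, the other core subunit, -0.07 (SE 0.07).

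**Figure D3:**
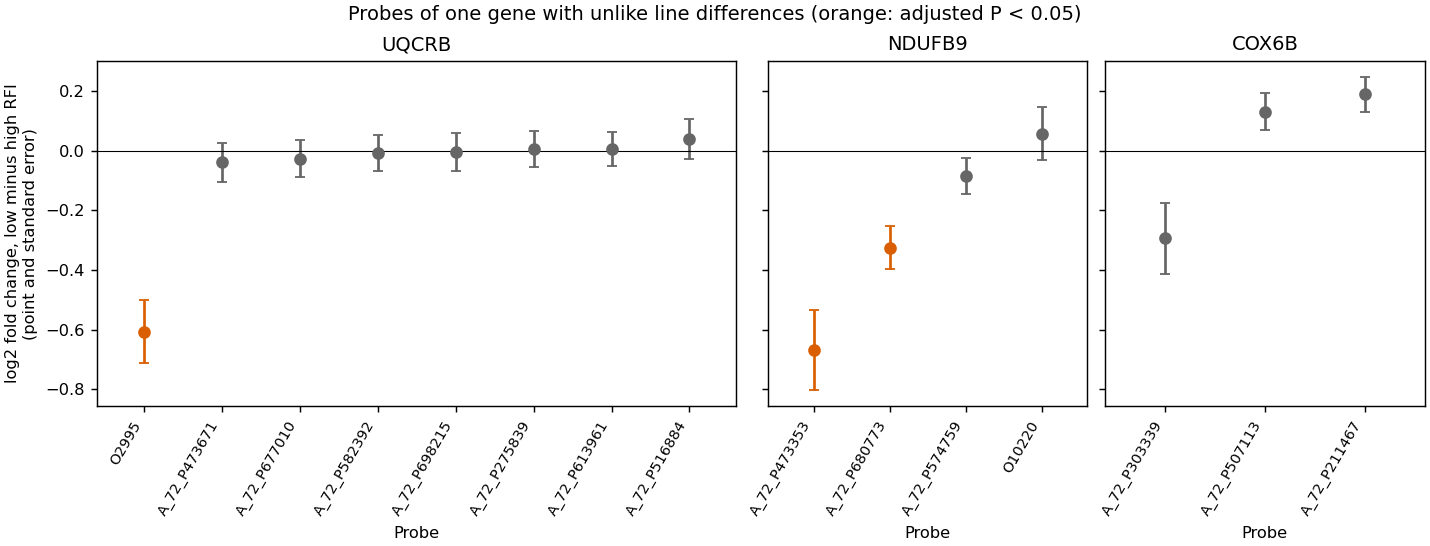
The log2 FC between lines with its standard error is plotted for each probe of UQCRB, NDUFB9 and COX6B, with adjusted P-values under 0.05 in orange. In UQCRB 1 of 8 probes and in NDUFB9 2 of 4 probes lie far below the others of the same gene, and in COX6B 1 probe lies below 0 and 2 above.

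Complex IV, cytochrome c oxidase, reduces oxygen. None of its 39 spots was called, and 9 of its 12 genes had a higher mean in low RFI pigs. COX7C, a small subunit, had 3 probes with log2 FC of 0.12 to 0.21. Its gene value ranged from 4.97 to 5.78 with a median of 5.28 in low RFI pigs and from 4.54 to 5.85 with a median of 5.14 in high RFI pigs, a log2 FC of 0.16 (SE 0.08, adjusted P-value 0.38 by limma). COX7B had 0.09 (SE 0.05) and COX7A2, at 6 probes that all pointed up, 0.09 (SE 0.05), both with adjusted P-values of 0.58 or 0.59. The lowest gene was COX8H, a heart and muscle form, at -0.08 (SE 0.15). COX7A2L, which is related to COX7A2 and takes part in joining complexes, had 0.02 (SE 0.05).

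COX6B, an older name of COX6B1 under which 3 further probes are listed, again differed by probe. Probes A_72_P507113 and A_72_P211467, which share 58 bases, had log2 FC of 0.13 (SE 0.06) and 0.19 (SE 0.06, adjusted P-value 0.070 by limma), whereas A_72_P303339 had -0.29 (SE 0.12, adjusted P-value 0.23). The first 2 had a Pearson r of 0.89 with each other, and of 0.13 and 0.14 with the last. The gene value was therefore near 0, at 0.0086 (SE 0.06), and the single probe named COX6B1 had 0.03 (SE 0.06). None of these 4 spots passed after adjustment.

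In complex V, ATP5L, a membrane subunit, rose and ATP5O, the subunit that joins the stalk to the catalytic head, fell in low RFI pigs. ATP5L probe A_72_P203782 ranged from -0.82 to -0.03 with a median of -0.46 in low RFI pigs, and from -0.92 to -0.42 with a median of -0.63 in high RFI pigs. Only 15 of 24 low RFI pigs were above the high RFI median, but 11 were above every high RFI pig. The log2 FC was 0.22 (SE 0.06, FC 1.16, adjusted P-value 0.043 by limma), and the other ATP5L probe had 0.10 (SE 0.05, adjusted P-value 0.46). The 2 probes had a Pearson r of 0.12 over 48 pigs. At the called probe the log2 FC was 0.17 without slide 6 (adjusted P-value 0.28), 0.22 without slide 1 (adjusted P-value 0.079) and 0.21 without high RFI LF replicate 11 (adjusted P-value 0.056). With all non-control spots tested, it was 0.22 with an adjusted P-value of 0.067. This call was lost under more alternatives than any other of the 7.

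ATP5O had 1 probe, with levels from 3.19 to 4.11 and a median of 3.50 in low RFI pigs and from 3.29 to 4.18 with a median of 3.70 in high RFI pigs. There were 18 low RFI pigs below the high RFI median and 4 below all high RFI pigs. The log2 FC was -0.22 (SE 0.06, FC -1.17, adjusted P-value 0.024 by limma). It was lower in low RFI pigs on all 6 slides, by 0.06 to 0.37 on the log2 scale, and without slide 1 the log2 FC was -0.20 with an adjusted P-value of 0.12. Among the other genes, ATP5I had a log2 FC of 0.10 (SE 0.05, adjusted P-value 0.49). Of the genes with most probes, ATP5A1 had all 14 higher in low RFI pigs, by 0.02 to 0.11, with a gene value of 0.06 (SE 0.06). ATP5B had 9 of 10 higher, between -0.06 and 0.08, and ATP5F1 7 of 13, between -0.03 and 0.04. None of these spots was called, and the genes encode the alpha and beta subunits of the catalytic head and a stalk subunit.

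On gene values, the low RFI mean was the higher one for 59 of 70 subunit genes (84.3%), compared with 58.3% of all gene names. The genes called were NDUFV3, UQCR10 and ATP5L, higher, and NDUFB9 and ATP5O, lower, which is 5 of 70 (7.14%), compared with 2.73% of all gene names (1.30% higher and 1.43% lower). The median size of the log2 FC was 0.06 and the median SE was 0.06. Only 7 genes differed by an FC of more than 1.1 in either direction. Of the 39 genes with more than 1 probe, 28 had all probes on the same side of 0 and 11 had probes on both sides.

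The second comparison was between diets (24 pigs fed HF against 24 fed LF). No subunit spot was called, and none of all 37113 spots was (0.00% called by limma). At an unadjusted P-value under 0.05 there was 1 subunit spot (0.505%), compared with 1.64% of all spots. It was SDHD probe O9140, at 0.15 higher in pigs fed HF (unadjusted P-value 0.037, adjusted P-value 1.0). The median log2 FC of the subunit spots was -0.02, and 136 of 198 had a lower mean in pigs fed HF (68.7%), compared with 45.5% of all spots. The gene with the lowest P-value in each complex was NDUFV3 (log2 FC 0.08, P-value 0.21), SDHA (-0.04, 0.31), UQCRC2 (-0.08, 0.24), COX7B (-0.05, 0.37) and ATP5J (0.07, 0.25), all before adjustment. All 5 log2 FC were within 1.5 times their SE.

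The third comparison asked whether the line difference depended on the diet. No subunit spot was called for the interaction (0.00% of all spots called by limma), and 2 had an unadjusted P-value under 0.05 (1.01%, compared with 2.28% of all spots). Both were probes of COX7A1, the heart and muscle form of a complex IV subunit. Its gene value was 0.98 ± 0.35 in low RFI HF, 0.84 ± 0.18 in low RFI LF, 0.85 ± 0.22 in high RFI HF and 1.08 ± 0.40 in high RFI LF (SD, n = 12 each). The line difference was thus 0.13 in pigs fed HF and -0.23 in pigs fed LF, a difference of 0.37 (unadjusted P-value 0.037, adjusted P-value 0.89 by limma). The other genes with the lowest P-value of their complex were NDUFA12 (0.21, P-value 0.091), SDHD (-0.08, 0.50), UQCR11 (0.19, 0.12) and ATP5G2 (0.23, 0.14), before adjustment.

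The direction of the interaction was also uneven. It was positive at 151 of 198 subunit spots (76.3%), compared with 52.2% of all spots. The median line difference was 0.08 in pigs fed HF, with 168 of 198 spots higher in low RFI pigs (84.8%, compared with 51.1% of all spots), and 0.01 in pigs fed LF, with 119 higher (60.1%, compared with 53.8% of all spots). Within LF alone limma called 3 subunit spots, at NDUFB9, UQCR10 and UQCRB, and 0.574% of all spots, and 8 subunit spots (4.04%) had an unadjusted P-value under 0.05, compared with 7.45% of all spots. Within HF alone it called no subunit spot and 0.773% of all spots, and 17 subunit spots (8.59%) were under the unadjusted threshold, compared with 8.77% of all spots. The interaction at these 3 spots had unadjusted P-values of 0.26, 0.18 and 0.16.

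Pigs differed from each other in the whole set of subunits more than the lines did. As a measure of the subunit level of a pig, the gene values were set against their means over 48 pigs and averaged. Over all 70 genes this mean ranged from -0.23 to 0.26 with a median of 0.02 in low RFI pigs, and from -0.23 to 0.34 with a median of -0.05 in high RFI pigs. The SD was 0.12 in low RFI and 0.14 in high RFI pigs, and the means differed by 0.05. Of the low RFI pigs, 17 of 24 were above the high RFI median. Slides took up 28.8% of the sum of squares of this mean, where 10.6% would be taken on average with no slide effect, and the line 3.59%, compared with 2.13%. The mean over the 8 pigs of a slide was lowest on slide 1, at -0.10, and highest on slide 6, at 0.10.

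**Figure D4:**
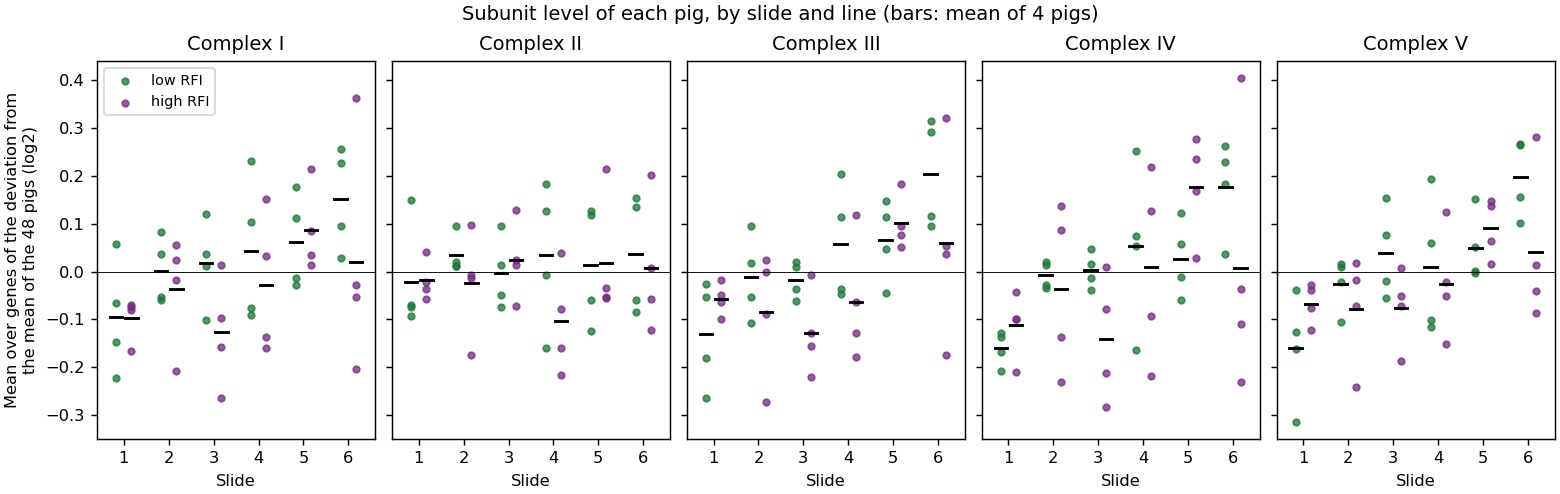
The mean deviation of the genes of each complex from their average over 48 pigs (vertical axis, log2) is plotted for each pig by slide, low RFI in green and high RFI in purple, with the mean of 4 pigs as a bar. The 8 pigs of slide 1 average -0.09 in complex III and -0.11 in complex V and those of slide 6 average 0.13 and 0.12, although single pigs of slide 6 reach down to -0.17 in complex III. The lines overlap on every slide, and complex II shows little difference between slides.

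The complexes varied together between pigs. After subtraction of the group means, the Pearson r over 48 pigs was 0.84 to 0.92 between the means of complexes I, III, IV and V, and 0.54 to 0.70 between complex II and each of these. The Spearman rho was 0.82 to 0.91 and 0.50 to 0.65, and without the 2 pigs farthest from the median the Pearson r was 0.79 to 0.90 and 0.42 to 0.61. After subtraction of slide means as well, the Pearson r was 0.79 to 0.91 and 0.60 to 0.76. The pairs share array, slide and the array's centring value. Between single genes the median r was 0.62 over 528 pairs of complex I, 0.20 over 3 pairs of complex II, 0.37 over 21 pairs of complex III, 0.61 over 66 pairs of complex IV and 0.39 over 105 pairs of complex V. Between genes of different complexes it was 0.48, and between a subunit gene and all other gene names -0.01. Probes of the same gene had a median r of 0.79.

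Not all genes followed. The Pearson r of a gene with the mean of the other 69 subunit genes was over 0.5 in 56 of 70 genes, over 0.8 in 27 and below 0 in 7. COX6B (0.91), ATP5G1 (0.90) and COX7B (0.88) followed the mean most closely. NDUFS1 (-0.56), NDUFA10 (-0.56), ATP5D (-0.25), NDUFA4L2 (-0.20), NDUFA3 (-0.14), ATP5E (-0.11) and COX8H (-0.04) went against it or did not follow it. The 5 genes called for the line lay below the median r of 0.77, with UQCR10 at 0.21, NDUFV3 at 0.36, ATP5L at 0.41, ATP5O at 0.50 and NDUFB9 at 0.64. The residual SD of a gene ranged from 0.13 to 0.52 with a median of 0.21 (n = 48).

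**Figure D5:**
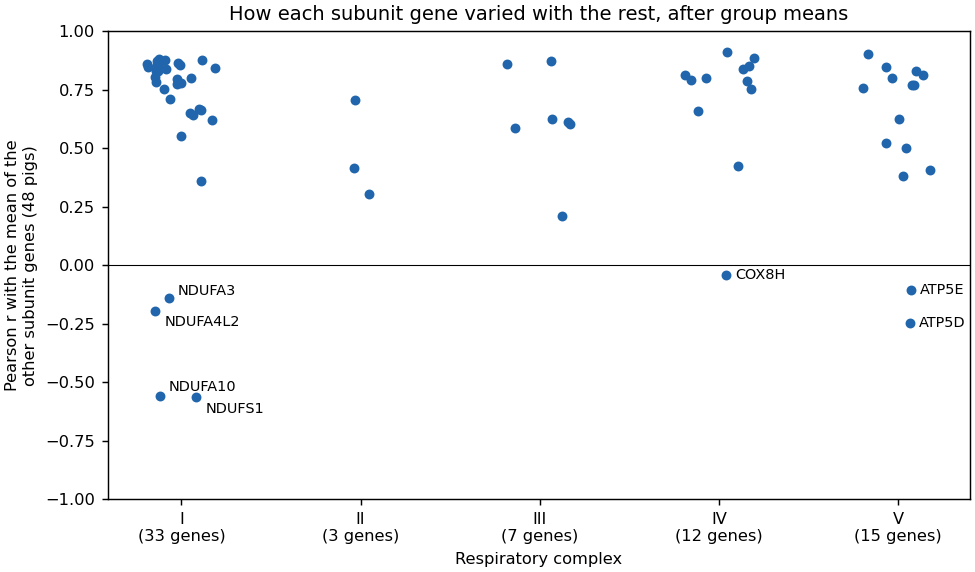
The Pearson r of each subunit gene with the mean of the other 69 subunit genes over 48 pigs, computed on residuals from the group means, is plotted by complex. Most genes lie above 0.5, and the 7 labelled genes lie below 0.

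Markers of blood cells moved with the subunits to differing degrees. The mean of all subunits had a Pearson r over 48 pigs, after group means, of 0.60 with 4 B cell markers, 0.45 with 3 NK markers, 0.40 with 7 T cell markers, 0.19 with 5 neutrophil and 0.19 with 4 monocyte markers, 0.09 with 3 platelet markers and -0.36 with 8 red cell markers. After slide means were subtracted as well, it was 0.46 with B cell, 0.49 with NK, 0.49 with T cell, 0.12 with neutrophil, 0.18 with monocyte, 0.23 with platelet and -0.48 with red cell markers, so that the order of the B, NK and T cell markers was not kept. Without the 2 pigs farthest from the median, the r after group means was 0.51 with B cell, 0.50 with NK, 0.34 with T cell, 0.15 with neutrophil, 0.38 with monocyte, -0.05 with platelet and -0.25 with red cell markers. With 4 genes of tissues other than blood, ALB, MYH1, CKM and FABP4, it was -0.35 after group means and -0.38 after slide means. Single markers were also called between lines. The B cell marker MS4A1 (-0.36, adjusted P-value 0.0013 by limma) was lower in low RFI pigs, as were the neutrophil receptor CXCR2 (-0.42, adjusted P-value 0.044) and the monocyte receptor CD14 (-0.47, adjusted P-value 0.042), and SLC4A1, the red cell anion exchanger, was higher (0.26, adjusted P-value 0.047), although its 2 probes had log2 FC of -0.08 and 0.59. By list, 2 of 5 neutrophil and 1 of 4 monocyte markers had a higher mean in low RFI pigs, compared with 58.3% of all gene names. None of the 4 B cell markers and all 8 red cell markers had a higher mean in low RFI pigs. None of the 7 T cell markers was called, 6 were higher in low RFI pigs and their median log2 FC was 0.13. The mean of the B cell markers ranged from -0.85 to 0.61 with a median of -0.12 in low RFI pigs, and from -0.15 to 0.50 with a median of 0.13 in high RFI pigs, and 5 of 24 low RFI pigs were above the high RFI median. The mean of the T cell markers ranged from -0.21 to 0.32 in low RFI and from -0.33 to 0.62 in high RFI pigs, with 21 of 24 low RFI pigs above the high RFI median, and that of the red cell markers from -0.73 to 0.70 and from -1.02 to 0.67. The part of cell composition in the subunit differences was not tested.

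Genes around the complexes were read from 4 lists. Over all gene names, 58.3% had a higher mean in low RFI pigs and 2.73% were called for the line. Among the 16 assembly factors measured, the median log2 FC was 0.05, 13 genes were on the side of low RFI pigs and 1 was called. This was COX17, a copper chaperone of cytochrome c oxidase, which was lower in low RFI pigs, from 5.71 to 6.71 with a median of 6.24 against 6.16 to 7.15 with a median of 6.47. The log2 FC was -0.28 (SE 0.07, adjusted P-value 0.013 by limma), its 4 probes lay between -0.30 and -0.24, and 3 of them were called. TMEM126B, a complex I assembly factor, had 0.19 (SE 0.07, adjusted P-value 0.13). None of the 13 citrate cycle genes was called as a gene and 12 had a positive log2 FC, with SUCLA2, a succinyl-CoA ligase subunit, at 0.15 (SE 0.05, adjusted P-value 0.13). In SUCLA2 1 of 2 probes was called. None of the 6 regulators of mitochondrial gene expression was called as a gene and all 6 had a higher mean, with TFB1M, a mitochondrial ribosomal RNA methyltransferase, at 0.15 (SE 0.05, adjusted P-value 0.088) and YY1, a transcription factor, at 0.05 (SE 0.05). In TFB1M 1 of 3 probes was called. The mean of the citrate cycle genes had a Pearson r of 0.83 and that of the regulators of 0.71 with the mean of the subunits over 48 pigs, after group means, and of 0.84 and 0.83 after slide means.

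Subunits encoded in mitochondrial DNA were measured under 14 gene names, and their log2 FC lay on both sides of 0. None was called, 6 were higher and 8 lower in low RFI pigs, and their median log2 FC was -0.0079. ND5, a complex I subunit, was the highest at 0.12 (SE 0.08, adjusted P-value 0.70 by limma) and ND6 the lowest at -0.06 (SE 0.05). The symbols COX1 and COX2, at -0.0063 and -0.0094, are also older names of the cyclooxygenases, and their probes were not matched to a genome. The mean of these genes had a Pearson r of 0.35 with the mean of the nuclear subunits after group means, and of 0.30 after slide means. Of the other 6 genes of that list, which hold cytochrome c and further subunits, ATPIF1, an inhibitor of the ATP synthase, had the lowest P-value, with a log2 FC of 0.15 (SE 0.09, adjusted P-value 0.66). CYCS, cytochrome c, named here after its values were seen, had a log2 FC of 0.03 (SE 0.06) as the mean of 12 probes that ranged from -0.37 to 0.98, 2 of them called. A difference between nuclear and mitochondrial subunits was not itself tested.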

How the data were processed

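Total RNA from whole blood was labelled with Cy3 and hybridized to a porcine 60K array. The deposited scanner files, per the file headers from Feature Extraction 10.7.3.1, give the intensity of each spot. The authors filtered spots on background, diameter, saturation and uniformity, and deposited log2 median-centred values of 37113 spots (R 3.0.2). On 47 arrays these values were the log2 median intensity minus the array median within 1e-06. In the column of high RFI HF replicate 1 this held for only 25 entries. There 1 value fills 37090 of the 37113 entries, and the column was rebuilt from its scanner file. No genome build is given in the sources used here.

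A model with line, diet and the interaction (contrasts that sum to 0) was fitted to each spot and each gene value (mean of spots with 1 gene name) with limma 3.58.1 in R 4.3.3, with Benjamini-Hochberg adjustment over all 37113 spots or 26924 gene names. limma's moderated test was checked on simulated data with independent spots and no slide effect. That check does not cover correlation between spots or differences between slides. Sequence runs, correlations and figures used Python 3.11.15. P-values set a difference against the spread between pigs. With 1 population per line, they do not cover the spread between replicate selected lines. The members and gene lists were chosen with earlier results of these data known. Values are given for genes with a called spot, the 3 genes with the lowest line P-value and the largest change in each direction of each complex, the lowest diet and interaction P-value, genes with probes of opposite sign with 1 or more at a P-value under 0.01, and members that are no classical subunit. From other lists they are given for called genes and the 2 lowest line P-values, and some results of these lists are not reported here. Alternatives were the methods' analysis of variance, background-corrected signals centred on the median or the 75th percentile, normexp (offset 50) with quantile normalization, all non-control spots, spots well above background on every array, a block for slide or for replicate number, a prior with trend and robust option, the column as deposited, leaving out that pig, the brightest probe of a gene, no FC criterion and within-slide values. Leaving out slide 1, slide 6 or the pig with the highest subunit values, and NDUFA4 with complex IV, were added after the values were seen.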

Additional observations from a re-analysis of the deposited data

Results flagged for a closer look

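Of the 12 matching spots that the normalized table leaves out, 3 belong to genes with no retained spot and were well above background on all 48 arrays, whereas the negative control spots had a median level of -3.60. The COX4I1 spot, of a nuclear subunit of complex IV, had a mean level of 0.34 ± 0.23 (SD, n = 48), with 0.38 ± 0.25 in low RFI and 0.30 ± 0.21 in high RFI pigs (n = 24 each). The COX4NB spot, of a gene that is named for its neighbour COX4I1 and is no subunit, had a mean level of 0.24 ± 0.25 (SD, n = 48), and the ATP5SL spot a mean level of -1.15 ± 0.15 (SD, n = 48). The log2 FC between lines was 0.09 (SE 0.07) for COX4I1, 0.12 (SE 0.07) for COX4NB and 0.07 (SE 0.05) for ATP5SL, and no adjusted P-value was under 0.87 by limma over all non-control spots. The level at 1 probe cannot be set against that at another.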

How the results depend on the processing

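The count of 7 subunit spots called for the line was 5 to 10 under 11 of 14 alternatives. It was 11 with a replicate block, 2 with the column as deposited and 4 without slide 6, where all 4 were lower in low RFI pigs. The spots at UQCRB and NDUFB9 A_72_P473353 were called in all 15 analyses. The count past the criterion of the methods was 10, and 4 with the column as deposited. The 5 genes called became 0 with the column as deposited, 2 without slide 6, 2 without slide 1 and 3 with the brightest probe, which reversed NDUFB9 from -0.26 to 0.057. The repeated value of 1 pig accounts for the losses with the deposited column, and leaving out a slide takes 8 pigs away. The citrate cycle list had 0 called genes and 1 under each of the 3 other normalizations. The share of subunit spots higher in low RFI pigs was 75.8% to 85.4% over the alternatives on probes, while within slides 1 and 5 most were lower. The median of complex III lay between -0.0086 and 0.06 and thus had no settled sign. No alternative called a subunit spot for diet or interaction. Pigs with the same replicate number share a slide, but only 44 of 72 such pairs had a residual correlation over 0.1 (-0.60 to 0.71), and the labels do not say what a number marks, so that the replicate block was kept as an alternative. Of 48 pigs, 22 correlated best, among pigs of other groups, with a pig of their own number. Among the 6 pigs of other groups on their slide, of which 3 share the number, 35 did, where 24 would if the number were unrelated to the values within slides. No spot is saturated, and 197 of 198 subunit spots were well above background on every array.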
